A study of Mus musculus with 9 samples.

Results

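A subclone of Xpc-null mouse embryonic stem cells was compared with the uncloned cultures. The 3 arrays of the subclone (labelled Xpc_KO) were set against 6 arrays, 3 of floxed cells with no deletion (Xpc_f/f-Tx) and 3 of floxed cells 4 days after the deletion was induced (Xpc_f/f+Tx_day4). These are all 9 arrays of the series, so members are all samples and every gene was eligible, 19913 genes after a filter on dim probes. All 3 groups go back to a line with floxed Xpc, in which Cre recombinase cuts out the DNA between a pair of loxP sites. The labels do not give the parent line, what drives Cre, the number of subclones, or whether the 3 arrays of a group came from separate cultures, so p-values may measure technical spread alone. The comparison asks which genes set the subclone apart from cells of the uncloned population, whether these had just lost Xpc or still had it. Subcloning and the loss of Xpc cannot be told apart in this design, since no subclone that kept Xpc is among the 9 arrays.

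Embryonic stem cells are cultured counterparts of the inner cell mass of the blastocyst. Their cultures are mixed: most cells hold a self-renewal network around Oct3/4, Sox2 and Nanog, while a few drift towards epiblast, trophectoderm or flattened, matrix-producing cells. Subcloning starts a new population from few founders, so that such a mixture has to form anew. Xpc protein finds helix-distorting DNA damage for nucleotide excision repair, and it has been described as a coactivator of Oct3/4 and Sox2.

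Levels are given as log2 of the processed spot signal minus log2 of the array's 75th percentile, and differences are on that log2 scale. The share of spots called well above background ran from 47.4% to 57.9% per array, and saturation was not seen. The arrays were on 3 slides, each a slide barcode with its own scan. Slide 1 held floxed arrays 1 and 2, slide 2 floxed array 3 and null array 3, and slide 3 the induced arrays and null arrays 1 and 2. Floxed array 3 stood apart from its group before any test. On the first principal component (47.3% of the variance) it lay at 24.2, beside the null arrays at 29.1 to 36.2, while the other 5 culture arrays lay between -33.9 and -14.9. On the second component (15%) it lay at 27.9 and null array 3, on the same slide, at 18.6. Null arrays 1 and 2 lay at -19.1 and -17.4, and the other 5 culture arrays between -12.7 and 9.27. The correlation of floxed array 3 over genes, which are not independent replicates, was 0.994 with the null mean and 0.9896 with the mean of the other 5 culture arrays. For each gene its position is therefore given as the share of the way from the other 5 culture arrays (0) to the null mean (1).

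Of 19913 genes, 1024 passed the test (limma, Benjamini-Hochberg adjusted p under 0.05), which is 5.14%. The null subclone was higher in 443 of them (2.22%) and lower in 581 (2.92%). In 2955 genes (14.8%) the 3 null values lay outside all 6 others, above them in 1533 (7.7%) and below them in 1422 (7.14%). Both conditions held for 975 genes (4.9%), 429 higher (2.15%) and 546 lower (2.74%), and 167 of the 975 carry predicted, clone or identifier names. Falls were the larger changes: the median difference was -0.74 among the 546 and 0.59 among the 429, against 0.02 over all genes tested. At least 2-fold changes were seen in 157 falling and 46 rising genes, and at least 4-fold changes in 25 falling and 1 rising gene. In 48 of the falls the gene was well above background on no null array.

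The counts moved strongly with single arrays. Without floxed array 3, 2892 genes passed as higher and 2758 as lower, and 3280 and 3006 lay above or below all the other arrays. Without any other single array between 24 and 140 genes passed as higher and between 115 and 229 as lower, the fewest without null array 2. A core of 111 genes (0.557%), 19 higher and 92 lower, lay outside all 6 others and passed whichever of the 9 arrays was left out. The median position of floxed array 3 was 0.35 over the 975 genes and 0.13 over the core. The rule of the core selects against genes in which floxed array 3 lies near the null arrays, so the lower position is partly set by it. Floxed array 3 was the culture array nearest to the null arrays in 585 of the 975 genes. With the slide as a block, 292 genes passed as higher and 485 as lower, and 518 of the 975 were among them. The induced cells differed from the floxed cells in 1 gene by the same test, and that gene was not among the 975. The floxed group includes floxed array 3, and its median standard deviation was 0.177, against 0.116 in the induced group. The count of 1 gene therefore does not show that the floxed and induced cells were alike.

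Xpc checks the labels. Its probe (mm9 chr6:91439856-91439915) read 0.59, 0.55 and 0.16 in the floxed cells, -1.11, -0.68 and -1.05 in the induced cells and -0.85, -1.53 and -1.37 in the null subclone. Floxed values were the highest and the induced and null values overlapped, so Xpc is not among the genes specific to the subclone. The null mean was 31.1% of the floxed and 81.0% of the induced level. Against both cultures the difference was -0.99 (SE 0.18, adjusted p = 0.0213 in the fit over all genes), and an exact two-sided permutation test over the arrays gave p = 0.0714, where the smallest p that 84 splits allow is 0.0238. Without floxed array 1 or 2, induced array 2, or null array 2 or 3 the adjusted p lay between 0.0515 and 0.107. Signal remains in the null subclone, and whether the probe lies within the deleted part is not given in the sources used here.

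The 10 largest falls were in Pmp22, Csf1, Prss23, Ccn4, Cdx2, Acta2, Nupr1, Chac1, Ankrd1 and Tgfb2. Pmp22, a membrane protein of peripheral myelin and epithelia, read 0.97, 1.01 and 0.18 in floxed cells, 0.55, 0.23 and 0.12 in induced cells and -2.89, -3.98 and -2.56 in null cells. That is a difference of -3.65 (SE 0.31, adjusted p = 0.000811), with a gap of -2.68 to the nearest culture array, and 2 of 3 null arrays were still above background. The gene's other, dimmer probe differed by -0.68 only, so the size of its fall depends on the probe. Csf1, the macrophage growth factor, read -1.01, -0.89 and -1.72, then -1.31, -1.32 and -1.44, and -5.26, -4.45 and -4.89 in null cells, where it was not above background on any array. It was at least 5.27-fold lower. Prss23, a secreted serine protease, fell by 3.37 (SE 0.22, adjusted p = 0.000392). The 6 culture values ran from -0.95 to 0.10 and the null values from -3.97 to -3.54. Ccn4, a matricellular protein and Wnt target, was at least 5.56-fold lower, with culture values from -1.93 to -0.71 and null values from -4.59 to -4.42. In these 4 genes the gap between the groups was wider than the whole spread of either group.

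**Figure D1:**
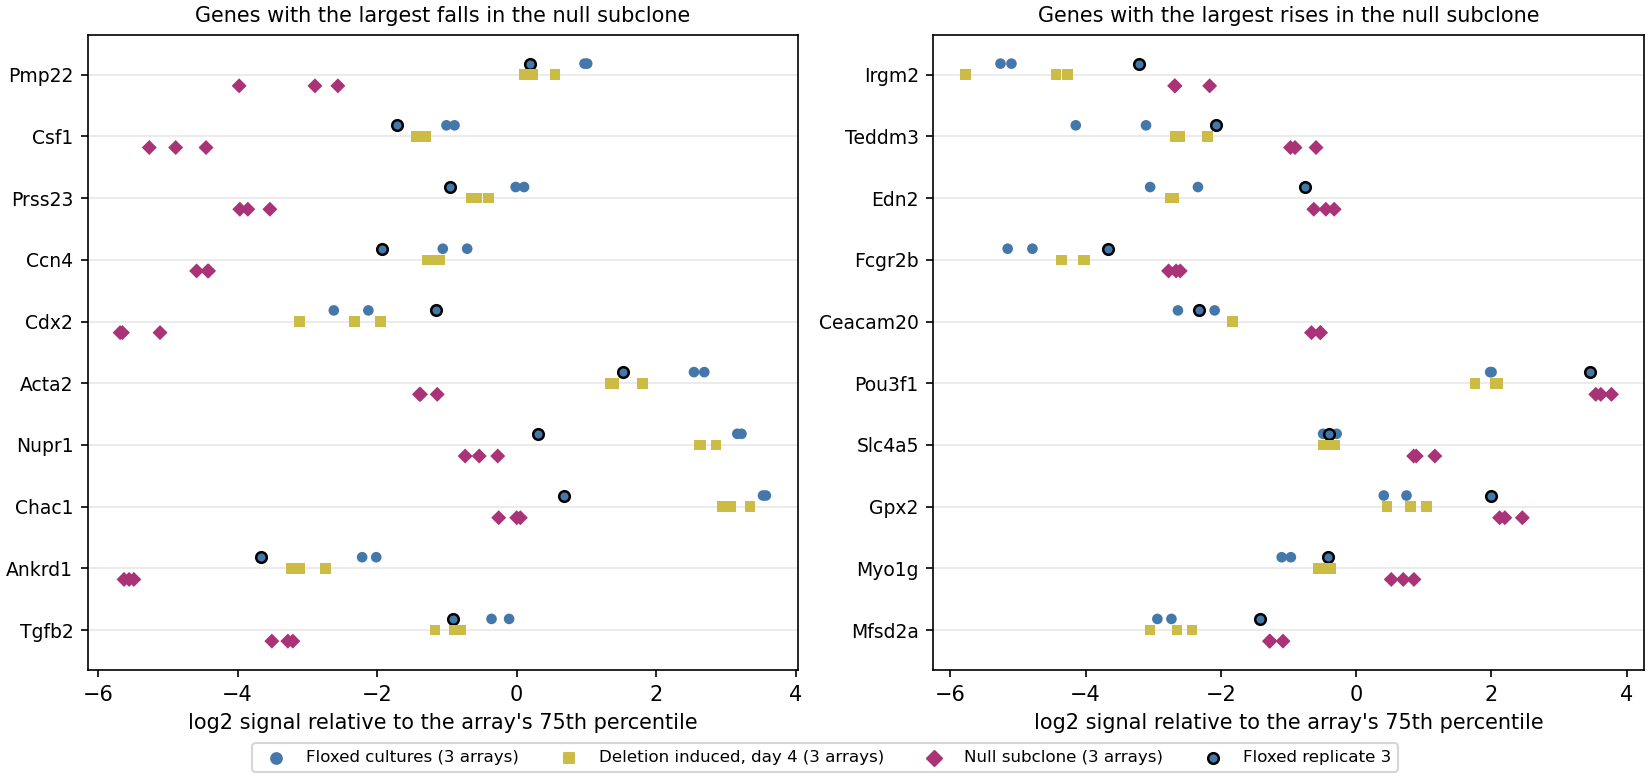
Level of the 10 largest falls (left) and 10 largest rises (right) on each of the 9 arrays, as log2 signal relative to the array's 75th percentile, with floxed replicate 3 ringed. In Pmp22, Csf1 or Acta2 all 6 culture arrays lie together and far from the null arrays, whereas in Nupr1, Chac1, Edn2 and Pou3f1 floxed replicate 3 lies beside the null arrays.

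Other deep falls outside the lists below were chosen for mention after their values were seen. Zfp703, a transcriptional corepressor, fell by 1.96 (SE 0.11, adjusted p = 0.000327), with culture values from -0.65 to 0.24 and null values from -2.21 to -1.98. Cxcl10, a chemokine, was at least 2.81-fold lower, and floxed array 3 had its highest value (-1.28). Dsc2, a desmosomal cadherin, was at least 1.42-fold lower and Mal, a raft protein of apical membranes, at least 2.78-fold lower. The homeobox gene Meis2 (-1.21, SE 0.17), the Sox gene Sox21 (-1.45, SE 0.14) and the retinoic acid target Stra8 (-1.38, SE 0.17) also fell, with adjusted p between 0.00152 and 0.00946. All 7 belong to the core of 111 genes.

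Some contractile genes fell and none rose. The list of actin cytoskeleton genes and targets of SRF, the serum response factor that binds CArG boxes when its partner MRTF is released from actin, had 20 tested members. None passed as higher and 9 as lower, against 2.92% of all genes, all 9 lay below all 6 culture arrays, and 11 did not pass. The list median was -0.30. Acta2, smooth muscle actin, read 2.54, 2.69 and 1.52 in floxed, 1.80, 1.38 and 1.34 in induced and -1.38, -1.39 and -1.14 in null cells, a difference of -3.18 (SE 0.24, adjusted p = 0.000494). Tagln, an actin-bundling protein of smooth muscle, read 4.77, 4.76 and 4.54, then 4.42, 3.88 and 3.94, and 2.48, 2.74 and 2.65 in null cells (-1.77, SE 0.13). Fhl2, a LIM protein at adhesions, read 0.39, 0.39 and -0.02, then 0.12, -0.42 and -0.30, and -2.04, -2.31 and -2.15 (-2.19, SE 0.15). Floxed arrays were highest, induced arrays between and null arrays lowest in Tagln, although induced minus floxed did not pass for it. Acta1 (skeletal muscle actin, -2.24), Tpm1 (a tropomyosin, -0.74) and Ankrd1 (a stress-induced muscle repeat protein, at least 1.80-fold lower) completed the 6 members in the core. Tpm2, Csrp1 and Cnn2 passed with differences from -0.54 to -0.38. Srf itself differed by 0.22 (adjusted p = 0.17) and Cnn1 by -0.21 (adjusted p = 0.42). Core genes outside the list included the actin binders Gsn (-1.64) and Cald1 (-1.48) and the focal adhesion protein Tgfb1i1 (-1.53), named after their values were seen.

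The members of this list are known for CArG boxes. The promoters of Acta1 and Fhl2 are shown because they hold a match (RefSeq, GRCm38.p6, 250 bases before the start, with the matched CArG box in capitals). Acta1 lies on chr8:123894776-123895025 and Fhl2 on chr1:43163962-43164211 (its second start), both on the minus strand.
Acta1: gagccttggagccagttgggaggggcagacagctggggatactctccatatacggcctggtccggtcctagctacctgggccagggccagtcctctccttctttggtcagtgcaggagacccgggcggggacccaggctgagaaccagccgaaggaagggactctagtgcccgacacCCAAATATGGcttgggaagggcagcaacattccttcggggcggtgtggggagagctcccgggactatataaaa
Fhl2: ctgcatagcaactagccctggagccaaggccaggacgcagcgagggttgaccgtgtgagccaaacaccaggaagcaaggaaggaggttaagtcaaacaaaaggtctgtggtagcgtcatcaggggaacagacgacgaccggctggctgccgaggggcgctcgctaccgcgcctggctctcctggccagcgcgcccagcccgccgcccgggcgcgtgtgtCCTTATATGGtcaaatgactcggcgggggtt
The box begins 73 bases before the start in Acta1 and 31 bases before it in Fhl2. Over the whole window of 300 bases around the start, on either strand, a CArG box was matched in 7 of the 19 tested list members with a promoter (36.8%) and in 3 of the 8 that passed (37.5%), against 1.60% of 10920 tested genes with a promoter. The share was alike in members that passed and in all members. Acta2 and Ankrd1 had no match in the bases before the start, and their promoters are not shown. The first start of Fhl2, also not shown, had a match 96 bases before it.

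Of 23 tested collagens, laminins and other matrix proteins, none passed as higher and 7 as lower, against 2.92% of all genes, and 16 did not pass (list median -0.26). Col1a1, a chain of fibrillar collagen I, read -0.42, -0.48 and -0.88 in floxed, -0.92, -0.78 and -0.73 in induced and -3.20, -2.77 and -2.99 in null cells (-2.29, SE 0.13, adjusted p = 0.000327). Its partner Col1a2 differed by -1.89 and Col3a1 was at least 1.72-fold lower. Thrombospondin 1 (Thbs1), an adhesion-modulating glycoprotein, read 0.44, 0.43 and -0.20, then 0.26, 0.17 and 0.28, and -1.65, -1.93 and -2.30 (-2.19, SE 0.18, adjusted p = 0.000655). The basement membrane chains Col4a2 (-1.58) and Col4a1 (-0.71) passed too, and these were also the members of the primitive endoderm list that did so. Fn1, fibronectin, did not pass (-0.26, adjusted p = 0.39). Among 17 proteases and inhibitors 4 passed, all lower, against 2.92% of all genes. They included Prss23, the metalloprotease inhibitor Timp2 (-1.31) and the collagen chaperone Serpinh1 (-1.03).

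Annexins and S100 proteins bind calcium and membranes or partner proteins, and galectins bind galactosides. Of 18 such genes 6 passed, all lower, against 2.92% of all genes, and 12 did not pass (list median -0.41). Anxa1 read 3.15, 3.22 and 2.64, then 3.02, 2.58 and 2.65, and 1.06, 1.53 and 1.09 in null cells (-1.65, SE 0.17). Anxa3 (-1.79) and Anxa5 (-1.28) also passed whichever array was left out, and Lgals1 (-0.89), S100a6 (-0.46) and Lgals3 (-0.36) passed with all arrays.

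Markers of fibroblasts, cells that can be present in such cultures as feeders, were counted beside these falls. Of 20 markers, 8 were above background on no array, namely Pdgfra, Pdgfrb, Dpt, Lum, Fap, Postn, Prrx1 and Col6a3. Of the 10 tested, 6 passed as lower (Col1a1, Col1a2, Col3a1, Acta2, Tagln and Twist2) and none as higher, against 2.92% and 2.22% of all genes. Vim differed by 0.12 and Thy1 by 1.35 (adjusted p = 0.43 and 0.056). The summed linear level of the 10 tested markers ran from 46.9 to 50.5 in floxed, 34.7 to 41.2 in induced and 24.9 to 26.2 in null cells. Such a sum is weighted to bright genes, and Tagln made up much of it in floxed cells. On the log2 scale Tagln read 4.77, 4.76 and 4.54 in floxed and 2.48, 2.74 and 2.65 in null cells. The sum therefore does not describe the markers as a whole. Fewer cells of a type and less RNA per cell cannot be told apart in such bulk samples, here or in the results that follow.

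Simple epithelial keratins had a median of -1.13 over 6 tested members. Of these 5 passed as lower and none as higher, against 2.92% and 2.22% of all genes. Krt8 read 4.51, 4.44 and 4.39 in floxed, 4.06, 3.56 and 3.74 in induced and 2.74, 2.78 and 2.90 in null cells (-1.31, SE 0.11, adjusted p = 0.000833). Its partner Krt18 differed by -1.61 (SE 0.17) and Krt19 by -1.27 (SE 0.10), and Krt42 (-0.58) and Krt7 (-0.99) passed as well. Krt14, a keratin of stratified epithelia, did not (-0.03, adjusted p = 0.91). The desmosomal linker Dsp read 1.01, 0.98 and 1.05, then 0.83, 0.70 and 0.73, and 0.00, -0.17 and -0.16 in null cells (-0.998, SE 0.08). Of 13 tested epithelial markers 5 passed as lower, against 2.92% of all genes. They were 4 keratins (Krt7, Krt8, Krt18, Krt19) and Dsp, whereas the junction markers Cdh1 (0.21), Epcam (0.16) and Cldn7 (0.34) did not pass. The summed linear level of the 13 tested markers ran from 119.7 to 135.3 in floxed, 87.1 to 116.1 in induced and 69.7 to 75.7 in null cells. Bright genes weigh most in it. Krt18 read 6.03, 6.06 and 5.48 in floxed and 3.88, 3.95 and 4.17 in null cells on the log2 scale, so the sum does not describe the other markers. None of the 15 markers listed was below background on every array. The part of other cell types in these falls was not tested.

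Keratins 8 and 18 are also early marks of trophectoderm, the outer layer of the blastocyst. Of 16 tested trophectoderm genes 7 passed as lower and none as higher, against 2.92% and 2.22% of all genes (list median -0.53). Cdx2, which specifies that lineage, read -2.62, -2.13 and -1.16 in floxed, -1.95, -2.32 and -3.11 in induced and -5.68, -5.11 and -5.65 in null cells, above background on all culture arrays and on no null array. It was at least 2.75-fold lower, and floxed array 3 had its highest value. The trophoblast factors Hand1 (-1.29, adjusted p = 0.0095) and Gata3 (-1.68, adjusted p = 0.027) and the surface protein Ly6a (-1.62) fell too. Eomes (0.58, adjusted p = 0.19) and Tfap2c (-0.55, adjusted p = 0.18) did not pass. No member of the mesoderm and primitive streak list passed (limma, 7 tested, 1 at an unadjusted p under 0.05), nor of the 2-cell-like list (9 tested, 1 at an unadjusted p under 0.05).

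Several secreted signals and their helpers were among the falls. Tgfb2, a ligand of the Tgf-beta family, read -0.11, -0.36 and -0.91 in floxed, -0.90, -0.81 and -1.17 in induced and -3.28, -3.21 and -3.51 in null cells (-2.62, SE 0.17, adjusted p = 0.000392), with 1 of 3 null arrays above background. Inhba, a subunit of activin A, was at least 1.26-fold lower. Inhbb, the related subunit of activin B, moved the other way, from -1.37 to -0.80 in the 6 culture arrays to -0.07, 0.00 and -0.49 in null cells (0.97, SE 0.14, adjusted p = 0.0112). The receptor Tgfbr2 differed by -1.47 (adjusted p = 0.0302). The whole Tgf-beta list of 29 genes had 1 rise and 3 falls, against 2.22% and 2.92% of all genes, and a median of -0.0007. Wnt4, a Wnt ligand, read 0.09, 0.40 and -0.14, then 0.00, -0.41 and -0.36, and -2.65, -2.29 and -2.37 in null cells (-2.37, SE 0.15), and its other probe differed by -1.46. Wnt7b differed by -0.88 (adjusted p = 0.0243), and Wls, the carrier that Wnt proteins need for secretion, by -1.56 (SE 0.12), the latter named after its value was seen. Igf2, an imprinted growth factor, was at least 1.85-fold lower. Among 16 YAP-TEAD targets 4 passed, all lower, against 2.92% of all genes. They were Ankrd1, Axl (-0.69), Ccn1 (-0.46) and Lats2 (-0.72), while Ccn2 did not pass (-0.27, adjusted p = 0.20).

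Among genes that passed with all 9 arrays, rises were fewer and smaller than falls, although more genes lay above all 6 others than below them. Ceacam20, a cell adhesion molecule of the carcinoembryonic antigen family, read -2.63, -2.09 and -2.33 in floxed, -1.83, -1.82 and -1.83 in induced and -0.66, -0.53 and -0.53 in null cells (1.52, SE 0.12, adjusted p = 0.000494). Its gap was 1.17, but its other, dimmer probe differed by 0.61 only. Slc4a5, a sodium bicarbonate cotransporter, read -0.29, -0.49 and -0.40, then -0.31, -0.48 and -0.40, and 0.85, 1.17 and 0.89 (1.36, SE 0.10, adjusted p = 0.000491). The 6 culture arrays of Slc4a5 lay within 0.20 of each other, and floxed array 3 was at position -0.01. Arhgap30, a GTPase-activating protein of blood cells, differed by 1.31 (SE 0.14), although only 1 of 3 floxed arrays was above background. Myo1g, a membrane myosin of lymphocytes, read -0.96, -1.10 and -0.42, then -0.55, -0.41 and -0.37, and 0.70, 0.86 and 0.52 (1.33, SE 0.15). These 4 passed whichever array was left out. Of the 11 tested markers of blood and endothelium none passed as higher and Runx1 as lower (-0.55), against 2.22% and 2.92% of all genes. Of these 11 markers 3 lay above all 6 others and 1 below, against 7.7% and 7.14% of all genes (list median 0.26). Their summed level ran from 38.9 to 56.0 in floxed, 38.3 to 42.7 in induced and 37.4 to 62.6 in null cells, and the markers Spi1 and Cdh5 were above background on no array. Other core rises, named after their values were seen, were the clathrin light chain Cltb (0.96), the death receptor Tnfrsf25 (0.81) and the chaperone Hsph1 (0.61).

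A second set of rises was shared by floxed array 3. Pou3f1, a factor of primed epiblast, read 2.0, 1.98 and 3.46 in floxed, 2.10, 1.76 and 2.06 in induced and 3.78, 3.54 and 3.62 in null cells (1.42, SE 0.30, adjusted p = 0.036). Only 0.09 separated floxed array 3 from the nearest null array. Edn2, an endothelin peptide, read -3.04, -2.34 and -0.75, then -2.73, -2.70 and -2.75, and -0.45, -0.32 and -0.62 (1.92, SE 0.40, adjusted p = 0.0349). The interferon-inducible GTPases Irgm2 and Igtp (1.28, SE 0.27) had floxed array 3 at positions 0.71 and 0.89. Irgm2 was above background on 1 of 3 floxed, no induced and all 3 null arrays, so the size of its rise is not fixed by these arrays. The glutathione peroxidase Gpx2 (1.35) and the lipid transporter Mfsd2a (1.32) stood at 0.83 and 0.87. Within slide 2, null array 3 exceeded floxed array 3 by 0.12 for Edn2 and 0.16 for Pou3f1, and within slide 3 the 2 null arrays exceeded the induced arrays by 2.34 and 1.69. Each of these 6 genes missed the threshold in 7 or 8 of the 9 fits that left out an array. Fcgr2b, an inhibitory Fc receptor that was above background on 1 of 6 culture arrays and all 3 null arrays, and Teddm3, a membrane protein (1.98, SE 0.37), were intermediate, with positions of 0.45 and 0.41.

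The central stem cell factors did not pass the test. Pou5f1 (Oct3/4) read 4.78, 4.98 and 4.74 in floxed, 5.42, 4.67 and 4.32 in induced and 4.67, 4.28 and 3.92 in null cells (-0.53, adjusted p = 0.19), with overlapping groups. Nanog was lower on all 3 null arrays than on all 6 others (-0.84, -0.98 and -0.80 against -0.63 to 0.10), with a difference of -0.61 (SE 0.17, adjusted p = 0.0691). Esrrb (-0.55), Zfp42 (-0.20), Sox2 (-0.19) and Klf4 (-0.16) overlapped between the groups, and in all 4 null array 3 exceeded floxed array 3 on the shared slide, by 0.22, 0.23, 0.14 and 0.75. The 19 naive factors had a median of -0.42, with 0.15 within slide 2 and -0.33 within slide 3. In limma 10 of the 19 had an unadjusted p under 0.05. Against 2.22% and 2.92% of all genes, 1 of these 19 passed as higher, Utf1 (0.48), and 1 as lower. That one was Dppa3 (Stella), a maternal factor that marks naive cells, which read 2.63, 2.70 and 2.47, then 2.64, 2.10 and 2.16, and 1.13, 1.02 and 1.34 in null cells (-1.28, SE 0.14, adjusted p = 0.00269) and passed without any single array.

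Of 13 primed epiblast genes 5 passed as higher, against 2.22% of all genes, and none as lower (median 0.81). Otx2 read 4.66, 4.66 and 4.66, then 4.68, 4.55 and 4.49, and 4.96, 5.13 and 5.03 in null cells (0.43, SE 0.08), and Tcf15 differed by 0.53 (SE 0.08). Floxed array 3 lay at 0.12 and 0.20 for these, and at 0.89 for Pou3f1, 0.89 for the DNA methyltransferase Dnmt3b (1.07) and 0.57 for Sox4 (0.81). Fgf5, the classic mark of primed epiblast, differed by 1.23 and Lef1 by 2.01 without passing (adjusted p = 0.15 and 0.061). The list median was 0.16 within slide 2 and 0.77 within slide 3. Nes (nestin), an intermediate filament of neural progenitors, rose from 0.86 to 1.54 in the cultures to 1.99, 2.17 and 1.89 (0.82, SE 0.09, adjusted p = 0.00379). It passed whichever array was left out, but floxed array 3 lay at 0.47. The Nes difference was 0.34 within slide 2 and 1.12 within slide 3. Gbx2 rose by 0.73 (adjusted p = 0.0179). With Nes it made 2 rises among 11 tested neural genes, against 2.22% of all genes, and the other 9 did not pass.

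Regulators of the G1 phase and immediate early genes were also among the rises. E2f2, an activator of S-phase genes, read 1.52, 1.46 and 1.84 in floxed, 1.42, 1.66 and 1.72 in induced and 2.77, 2.94 and 2.72 in null cells (1.21, SE 0.12, adjusted p = 0.00155). Ccnd1 (cyclin D1, 0.93) and the repressors E2f8 (0.61) and E2f7 (0.60) passed as well. Both Cdk inhibitors of the Ink4 locus fell: Cdkn2a read from 2.63 to 2.88 in the cultures and 1.88, 2.21 and 2.11 in null cells (-0.70, SE 0.09), and Cdkn2b from -1.54 to -1.02 and -1.95, -1.94 and -2.02 (-0.68, SE 0.09). Together the list of 26 cell cycle genes had 4 rises and 2 falls, against 2.22% and 2.92% of all genes, and a median of 0.08. Of 25 Fgf-ERK and immediate early genes 6 passed as higher and 2 as lower, against 2.22% and 2.92% of all genes. Ier3, a stress-induced early gene, read -0.72 to -0.47 in the cultures and 0.14, 0.19 and 0.10 in null cells (0.71, SE 0.09), and it passed without any single array. Egr1 (1.15), Myc (1.10), Etv4 (0.82), Fos (0.76) and the feedback inhibitor Spry4 (0.51) also passed, and Fosl2 (-1.29) and Phlda1 (-0.53) were lower.

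**Figure D2:**
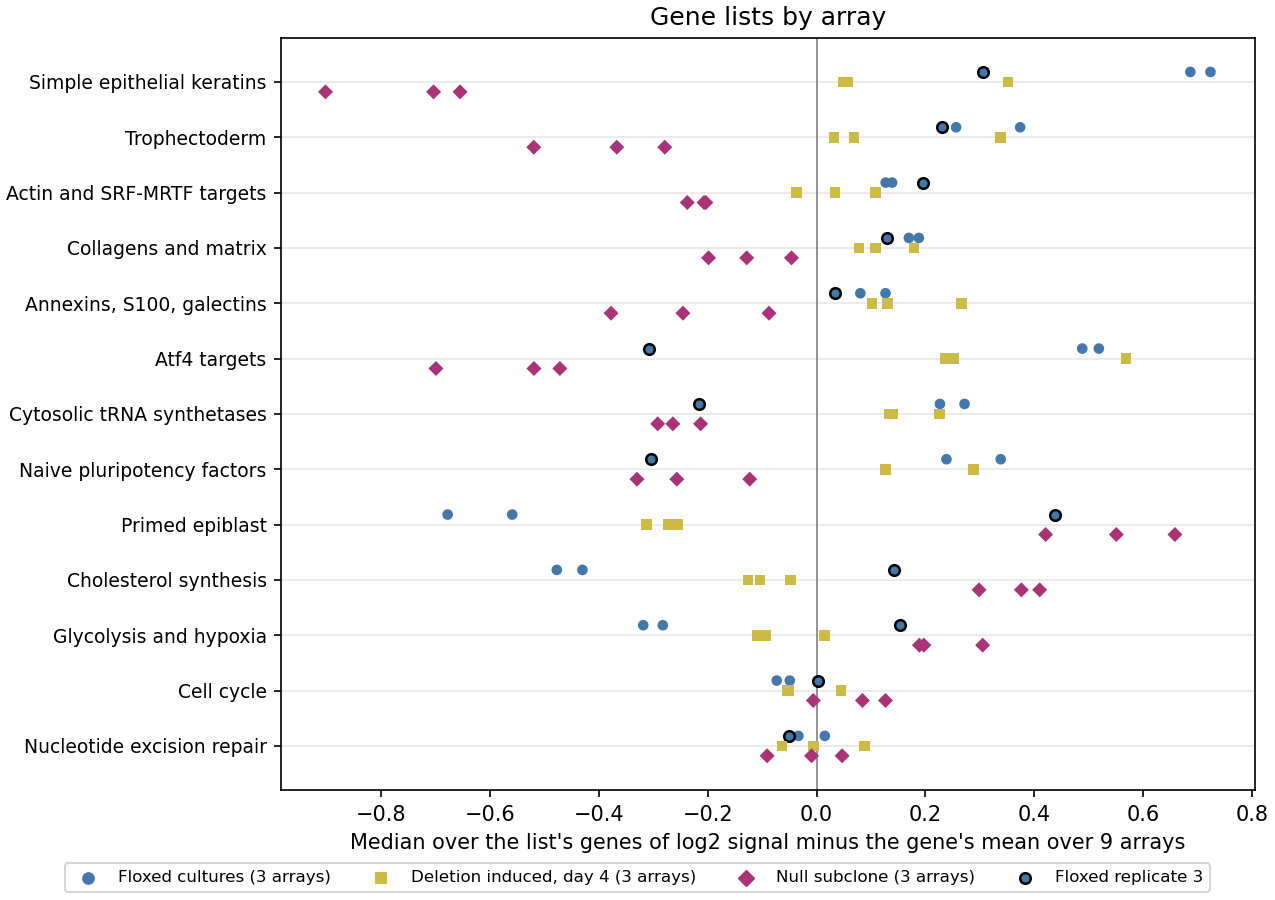
Median over the genes of 13 lists of the log2 level minus the gene's mean over the 9 arrays, 1 point per array. Null arrays lie apart from all 6 culture arrays in the keratin, trophectoderm, actin, matrix and annexin lists, and floxed replicate 3 lies beside or among the null arrays for tRNA synthetases, naive and primed genes and glycolysis.

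In several metabolic and stress lists, too, floxed array 3 lay towards the subclone. Atf4 is the transcription factor of the integrated stress response, which turns on amino acid synthesis and transport genes when translation is restrained. The list of Atf4 targets, which includes Atf4, had 34 tested genes and a median of -0.87. Among them 11 passed as lower and none as higher, against 2.92% and 2.22% of all genes. Atf4 itself read 7.0, 7.11 and 6.08 in floxed, 7.07, 6.63 and 6.79 in induced and 5.37, 5.48 and 5.41 in null cells (-1.36, SE 0.22, adjusted p = 0.0151). Chac1, a glutathione-degrading enzyme, read 3.57, 3.53 and 0.68, then 3.34, 2.95 and 3.06, and 0.00, -0.26 and 0.05 (-2.92, SE 0.57, adjusted p = 0.0305). Nupr1, a stress-induced nuclear protein, read 3.16, 3.22 and 0.31, then 2.86, 2.63 and 2.62, and -0.74, -0.54 and -0.27 (-2.98, SE 0.57). In both, floxed array 3 stood far below the other 5 cultures and the nearest null array lay a further -0.62 (Chac1) and -0.58 (Nupr1) away. The asparagine synthetase Asns (-1.27), the serine enzyme Psat1 (-1.28), the folate enzyme Mthfd2 (-1.04) and the transporters Slc6a9 (-1.80) and Slc7a1 (-1.36) passed with positions of 0.57 to 0.80. Atf3 (-1.78, position 0.13) and Stc2 (-0.88, position 0.36) were the members in the core.

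The list median was -0.25 within slide 2 and -0.94 within slide 3, and floxed array 3 differed from the other 5 culture arrays by -0.75. Cytosolic tRNA synthetases, which Atf4 also drives, had 6 falls and no rise among 20, against 2.92% and 2.22% of all genes. The median of these 20 was -0.38, with -0.09 within slide 2 and -0.41 within slide 3. The 25 cholesterol synthesis genes had 4 rises and no fall, against 2.22% and 2.92% of all genes. The rises were Idi1 by 0.95, Hmgcs1 by 0.74, Msmo1 by 0.65 and Insig1 by 0.60. Of the 25, 16 lay above all 6 others, against 7.7% of all genes. The median of the 25 was 0.55, but 0.13 within slide 2 and 0.46 within slide 3. Of 32 glycolysis and hypoxia genes 4 rose, against 2.22% of all genes, among them Aldoc (0.66) and the oxygen sensor Egln3 (1.12). Of the 32, 14 lay above all 6 others and 1 below, against 7.7% and 7.14% of all genes. That list had a median of 0.34, and 0.08 within slide 2. Of 18 endoplasmic reticulum chaperones Pdia4 (0.74), Sdf2l1 (0.53) and Hspa5 (0.45) rose and Herpud1 fell by 1.05, against 2.22% and 2.92% of all genes. Among these 18, 8 lay above all 6 others and 1 below, against 7.7% and 7.14% of all genes. How far the state of floxed array 3 and slide 2 enter these values was not tested.

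**Figure D3:**
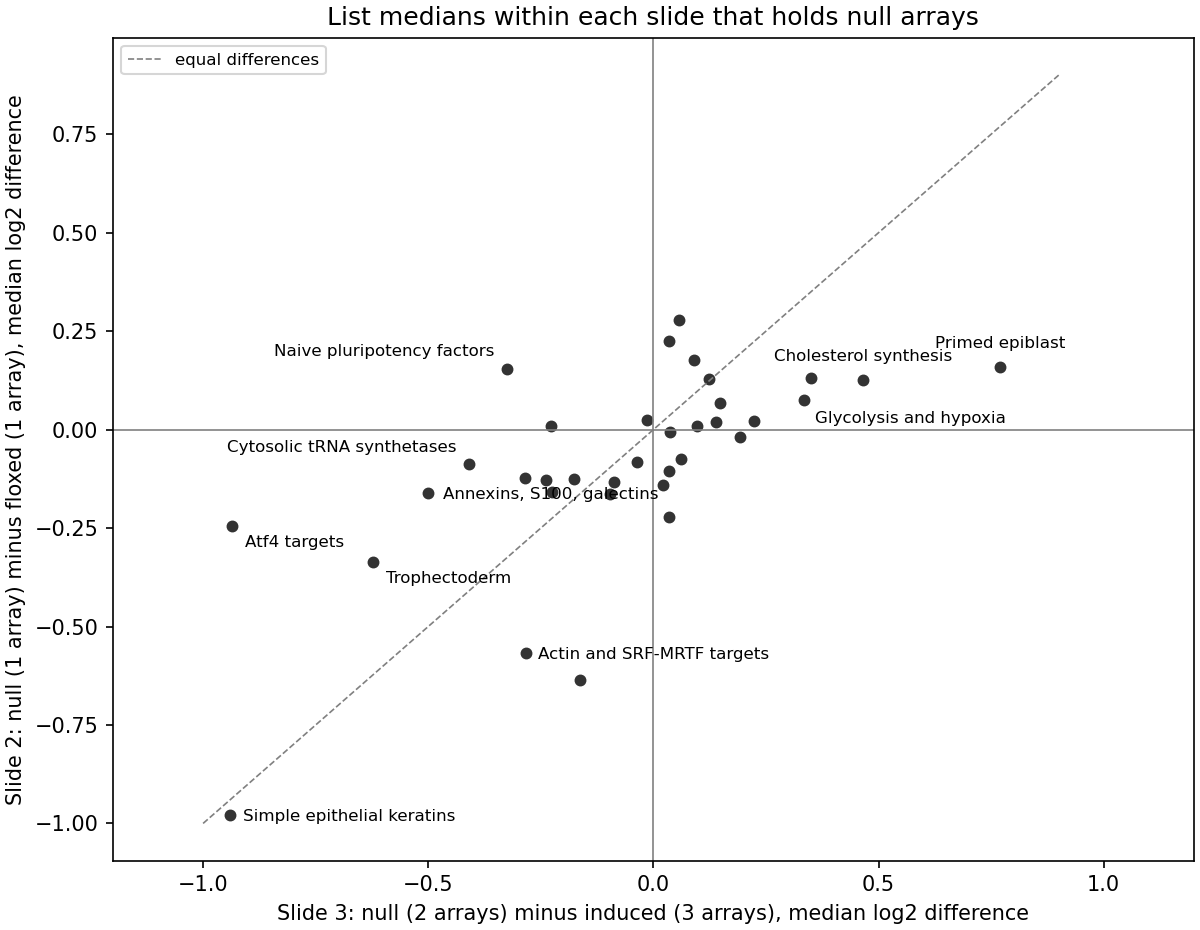
Median log2 difference of each gene list within slide 3 (horizontal axis, 2 null minus 3 induced arrays) and within slide 2 (vertical axis, 1 null minus 1 floxed array), with the line of equal differences dashed. Keratins lie close to the line at -0.94 and -0.98, whereas Atf4 targets lie at -0.94 and -0.25 and cholesterol synthesis at 0.46 and 0.13.

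The Atf4 composite element, to which Atf4 binds with a C/EBP partner, is shown in the promoters of 3 targets (GRCm38.p6, 250 bases before the start, searched as TGATGNAA on both strands and in capitals where matched). Chac1 lies on chr2:119350992-119351241 (plus strand), Asns on chr6:7693210-7693459 (minus) and Nupr1 on chr7:126625471-126625720 (minus).
Chac1: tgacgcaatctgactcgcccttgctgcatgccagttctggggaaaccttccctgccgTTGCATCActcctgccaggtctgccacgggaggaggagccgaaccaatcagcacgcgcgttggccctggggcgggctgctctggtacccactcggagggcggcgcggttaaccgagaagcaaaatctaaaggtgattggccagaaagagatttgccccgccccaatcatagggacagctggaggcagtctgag
Asns: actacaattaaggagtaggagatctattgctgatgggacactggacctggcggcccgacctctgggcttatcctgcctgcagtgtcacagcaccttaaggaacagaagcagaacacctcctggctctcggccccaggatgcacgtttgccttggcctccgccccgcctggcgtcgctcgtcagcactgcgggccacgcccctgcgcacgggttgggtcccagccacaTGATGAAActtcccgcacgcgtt
Nupr1: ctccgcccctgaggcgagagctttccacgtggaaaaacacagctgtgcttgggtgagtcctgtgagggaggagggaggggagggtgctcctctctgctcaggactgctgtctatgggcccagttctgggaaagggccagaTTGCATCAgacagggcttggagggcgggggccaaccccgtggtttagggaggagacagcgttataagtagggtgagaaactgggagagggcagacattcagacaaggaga
The element was matched in 8 of 31 tested Atf4 targets with a promoter (25.8%) and in 5 of the 11 that passed, and in 5 of 13 tRNA synthetases (38.5%) and 4 of the 5 that passed. Among all 10920 tested genes with a promoter the share was 2.72%. The former list was drawn up as Atf4 targets and the latter as an enzyme family that Atf4 also drives. The match therefore describes the lists and is no separate evidence on the subclone. The sterol element (TCACNCCAC) was matched in 1 of 17 cholesterol genes, against 1.42% of all.

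Several probes for noncoding RNA rose. The imprinted Dlk1-Meg3 locus carries a chain of maternally expressed noncoding RNAs after Meg3, ending in Mirg. In the list of its named genes Mirg rose by 0.57 (SE 0.12, adjusted p = 0.0343), while Meg3 lay above all 6 others without passing (0.34, adjusted p = 0.146) and Dlk1 overlapped. The probe of 1110006E14Rik, 27 kb after that of Meg3, read 0.80, 0.61 and 0.89 in floxed, 0.48, 1.11 and 1.10 in induced and 1.72, 1.91 and 1.81 in null cells (0.98, SE 0.15, adjusted p = 0.0127). The other probes between Dlk1 and Mirg were counted after these values were seen. Of 22 probes over 289 kb, 12 lay above all 6 others, against 7.7% of all genes, and 6 of them passed, against 2.22%. None lay below (median 0.475). Both strands were represented, with 9 of 17 plus-strand and 3 of 5 minus-strand probes above all 6 others. Induced arrays 2 and 3 were the culture arrays nearest to the null arrays for Meg3, Mirg and 1110006E14Rik. Neighbouring probes can report 1 transcript and are not independent.

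**Figure D4:**
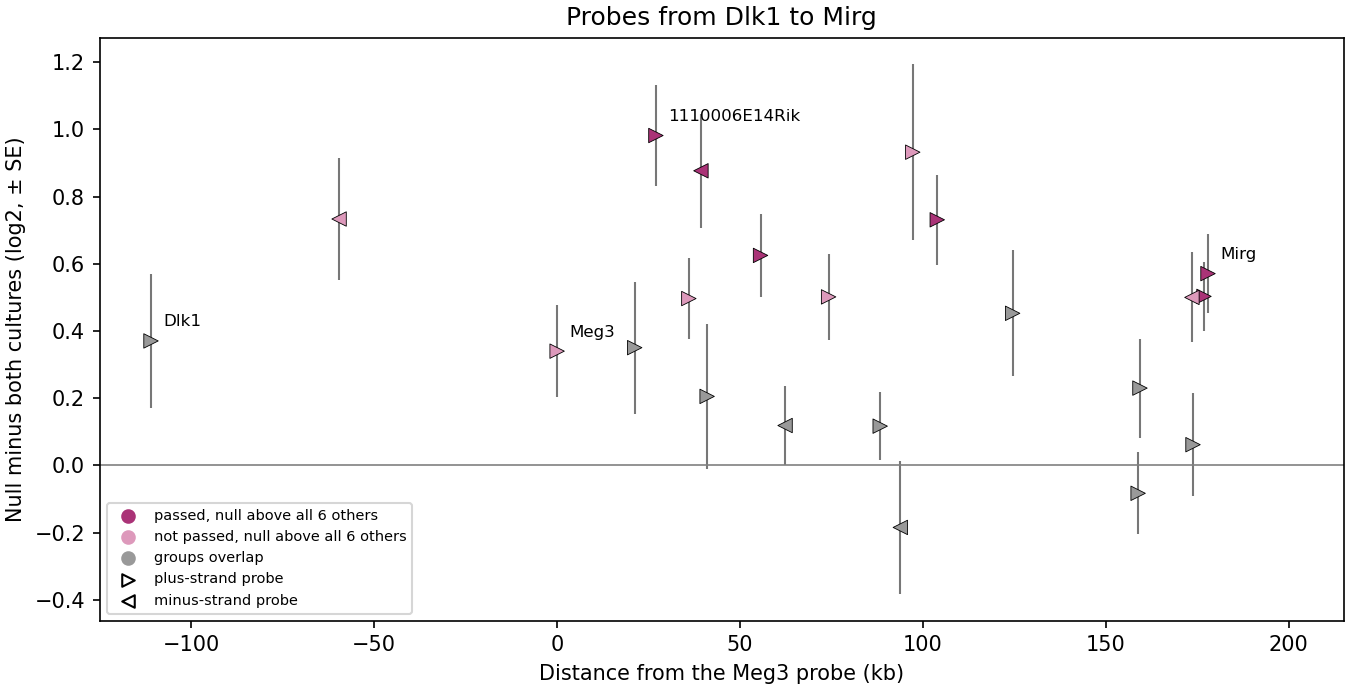
Null minus both cultures (log2 difference, ± SE) for the 22 probes from Dlk1 to Mirg, by distance from the Meg3 probe in kb, with the strand of the probe as the direction of the triangle. The 6 probes that passed lie between 27 and 178 kb after Meg3, at 0.50 to 0.98.

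The probes behind these values are given as the files print them, since they fix which RNA was read (mm9, 60 bases, 5′ to 3′). They are Mirg at chr12:110987569-110987628, 1110006E14Rik at chr12:110836685-110836744 and an intergenic RNA at chr13:31775719-31775778, all on the plus strand.
Mirg: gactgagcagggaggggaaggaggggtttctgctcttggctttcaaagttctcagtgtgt
1110006E14Rik: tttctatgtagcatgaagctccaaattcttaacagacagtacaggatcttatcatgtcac
chr13 intergenic RNA: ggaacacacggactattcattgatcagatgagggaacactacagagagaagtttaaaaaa
The chr13 probe, 136 kb from the nearest named gene tested (Gmds), differed by 1.21 (SE 0.13, adjusted p = 0.0028) and passed without any single array, with floxed array 3, at -0.88, the culture array nearest to the null arrays. Of 28 imprinted genes outside the Dlk1-Meg3 locus Mest rose by 1.03, with floxed array 3 at position 0.79, and Igf2, Grb10 (-0.48) and Ndn (-0.55) fell, against 2.22% and 2.92% of all genes that passed as higher and lower.

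Of 24 nucleotide excision repair genes 1 passed, a share near the 5.14% of all genes. It was Xpa, the damage-verification factor that acts after Xpc. It read 3.23, 3.24 and 2.33 in floxed, 3.22, 3.03 and 3.03 in induced and 2.03, 2.13 and 1.98 in null cells (-0.97, SE 0.19, adjusted p = 0.0325), with floxed array 3 again near the null arrays at position 0.74. The list median was 0.03. None of 13 tested neighbours of Xpc on chromosome 6 passed in limma or lay outside the other arrays, and 1 had an unadjusted p under 0.05. Of 21 p53 targets 2 passed, Dcxr (-0.58) and Plk2 (-0.47), both lower, against 2.92% of all genes. Cdkn1a did not pass (-0.30, adjusted p = 0.14). None of 14 Nrf2 targets passed in limma, although 6 had an unadjusted p under 0.05 and 4 lay above all 6 others. None of 8 neuron markers passed, and 3 had an unadjusted p under 0.05.

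Whole chromosomes could not be called at the threshold in this design. For each chromosome the median over its genes, relative to all genes, was compared over the arrays by an exact two-sided permutation test, whose smallest possible p is 0.0238. After adjustment over 20 chromosomes a pass was out of reach for a single chromosome, so the lowest adjusted p of 0.317 says nothing for or against a shift. On chromosome 16 the 3 null values, -0.0126 to -0.0019, lay below all 6 others, 0.0009 to 0.0136 (exact permutation p = 0.0238), and chromosomes 8 and 9 also had an unadjusted p under 0.05. The largest shift was -0.0222, on chromosome 8 (exact permutation p = 0.0476). Shares of genes above all 6 others lay between 5.7% and 10.2% per chromosome, and shares below between 5.47% and 8.47%. Along the chromosomes, 100 of 19675 positioned genes formed 31 runs of at least 3 neighbours that lay outside in the same direction. A run on chromosome 1 (mm9 chr1:172890988-172916597) joined Fcgr2b to a predicted gene and an unnamed probe 26 kb away, with a median difference of 1.14. The run on chromosome 4 held E2f2 and, beyond it, Asap3 (0.52) and Tcea3 (0.43).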

How the data were processed

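Total RNA of 9 samples was labelled with Cy3 and hybridised to 1-colour Agilent arrays, per the labels' protocols. The deposited values are spot intensity from Agilent Feature Extraction 10.7.3.1, per the submitters' processing notes, background-subtracted per the file headers. From log2 of the processed signal of non-control spots each array's 75th percentile was subtracted. Outlier spots were left out, spots of a probe averaged, probes kept that were above background on all 3 arrays of some group, and the brightest probe taken per gene. limma 3.58.1 (R 4.3.3) was fitted once to the 3 group means, with the null mean set against the average of the other 2, and Benjamini-Hochberg adjustment over 19913 genes. SE is the moderated standard error. The fits were tested on simulated data. Names came from RefSeq (GRCm38.p6) for 27235 of 55681 probes and from the files for 28446. Probe coordinates are mm9, and their exon or UTR context was not analysed here. "At least" folds set the culture mean against the lowest signal well above background. Samples were grouped by their labels. Named genes were the 10 largest rises and falls, the 5 widest gaps per direction up to 3 members per direction of each of 36 lists, members of runs of at least 3 neighbours, Xpc and 6 stem cell factors. Further list members and other genes were chosen after their values were seen. These members, lists and rules were chosen with earlier results of these data known. A deposited table of series values equalled the mean signal and served as an alternative. Signal depth is limited by background: the percentile was 346 to 471 and the background 29.0 to 46.5 units, and the number of arrays limits the precision. The alternatives were the normalization, background correction, dim-probe filter, probe averaging, blocks for slide and replicate number, and leaving out each array. A few further genes are not reported here.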

Additional observations from a re-analysis of the deposited data

How the results depend on the processing

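The main counts were 443 higher and 581 lower. With each array left out in turn 24 to 2892 genes passed as higher and 115 to 2758 as lower, both highest without floxed array 3, and 1595 to 3280 genes lay above and 1463 to 3006 below all the others. Normexp correction gave 728 higher and 947 lower, the deposited series values 571 and 826, quantile normalization 513 and 761, and no filter on dim probes 18 and 89. The filter for all 9 arrays gave 658 and 710. The slide as a fixed block gave 292 and 485, as a random block 569 and 746, and 2 groups instead of 3 gave 625 and 745. Slide 3 alone gave 1049 and 1416, but it holds no floxed array, so null was set against induced cells only. Replicate numbers did not pair the arrays: deviations of same-numbered arrays correlated at -0.106 to 0.0873, and with the replicate number as a block 148 genes passed as higher and 300 as lower. The Xpc difference of -0.99 became -0.89 with the slide block (adjusted p = 0.0597). It stayed -0.99 with no dim-probe filter (adjusted p = 0.0905) and with 2 groups (adjusted p = 0.153), and ran from -1.19 to -0.85 with arrays left out. Within slide 3, where the comparison is null minus induced cells, the Xpc difference was -0.25 (adjusted p = 0.513). Signs turned for Klf4 with the slide as a fixed (0.23) or random block (0.0251) and within slide 2 (0.75), for Zfp42 with the fixed block (0.0131) and within slide 2 (0.23), and within slide 2 for Sox2 (0.14) and Esrrb (0.22). Of 98 named genes that passed, 81 also passed with the slide block, 37 without the filter and 40 to 98 with an array left out. The cause of these changes was not tested.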
